A study of Mus musculus with 2 samples.

Results

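The levels of 10 genes of heat shock proteins and their partner chaperones were followed cell group by cell group in the unwounded and the wounded mouse cornea. The 10 genes, chosen by name among the 20198 genes of the deposited count table, were the HSP70 genes Hspa1a, Hspa1b and Hspa8, the HSP110 gene Hsph1, the HSP40 gene Dnajb1, the HSP90 genes Hsp90aa1 and Hsp90ab1, the small heat shock protein gene Hspb1, and the mitochondrial chaperonin genes Hspd1 and Hspe1. All 10 were present in the table.

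Molecular chaperones hold unfolded proteins and help them reach or regain their shape. HSP70 binds short hydrophobic stretches of a client protein in a cycle driven by ATP, HSP40 proteins bring it clients, HSP110 proteins exchange its nucleotide, and HSP90 takes over late-folding clients such as kinases and receptors, while small heat shock proteins hold clients without ATP and HSP60 with HSP10 folds proteins inside mitochondria. Some of these genes, Hspa1a, Hspa1b and Dnajb1 among them, are strongly induced by heat shock factors under heat or other stress, whereas Hspa8 and Hsp90ab1 are the members of their families that cells make at all times. Hspb1 is an abundant protein of stratified epithelia.

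The comparison rests on 2 libraries. The unwounded library (UW) pooled the corneas of 4 normal mice, and the wounded library (W) pooled those of 4 mice collected 24 h after the central corneal epithelium had been scraped off. Per the methods of the study the mice were males of 6 to 8 weeks, and the sources used here give no strain. The epithelium was lifted after 18 h in dispase at 4 °C and digested with trypsin, the remaining tissue was digested for 1 h in collagenase at 37 °C, and the cells were run on the 10x Genomics droplet platform, which counts the 3′ ends of transcripts by unique molecular identifiers (UMIs).

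UW held 16450 cells and 367166822 UMIs, and W held 12417 cells and 289586482 UMIs, with 52 cell barcodes shared by both. Each condition is 1 library of pooled mice, so no difference could be tested, and every interval given covers counting error only. Levels are UMIs of a gene per 1000000 UMIs (CPM), summed over the cells of a deposited cluster in a library. A gene was called higher or lower in W at a fold of at least 1.5, a log2 ratio of 0.585 or more in size, if it had at least 50 CPM in either library and 20 UMIs over both. A change in RNA content per cell and a change in a gene cannot be told apart on this scale.

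The 12 deposited clusters with at least 50 cells in each library are named by listed marker genes among their leading genes. Clusters 1 to 9 and 11 were epithelial (13501 UW and 8507 W cells). They were basal-like (3), limbal-like (9), S-phase-like (11), mitotic-like (8), suprabasal-like (1 and 4), superficial-like (2 and 6), terminal superficial-like (7) and conjunctival-like (5). Cluster 0 (2369 and 1719 cells) was stromal-like with Kera in the lead, and cluster 10 (565 and 632 cells), led by Penk, Myoc and Wisp2, was left unnamed. The clusters were formed by the authors from the same counts, so levels between clusters are descriptions.

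The DNA just upstream of the 4 members that were lower in the W epithelium (Hspa1a, Hspa1b, Dnajb1 and Hspb1) and of Hspe1, the member with the largest ratio of W to UW there, is shown first, because heat shock factors bind repeats of the letters GAA and TTC (heat shock elements). The RefSeq promoter table (GRCm38.p6) held 7 of the 10 members, Hspa8, Hsp90aa1 and Hsp90ab1 being the others. The 250 bases before the start of each gene are printed 5′ to 3′ on the strand of the gene. Capitals mark the triplets of each match to TTCNNGAA or GAANNTTC. Each of these words reads the same on both strands, and matches may overlap.
Hspa1a, chr17:34972157-34972406, minus strand: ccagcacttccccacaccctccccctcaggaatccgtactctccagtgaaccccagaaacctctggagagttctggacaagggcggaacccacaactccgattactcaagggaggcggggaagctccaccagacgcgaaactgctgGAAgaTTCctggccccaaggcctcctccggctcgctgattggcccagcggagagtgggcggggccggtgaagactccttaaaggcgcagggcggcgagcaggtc
Hspa1b, chr17:34959239-34959488, minus strand: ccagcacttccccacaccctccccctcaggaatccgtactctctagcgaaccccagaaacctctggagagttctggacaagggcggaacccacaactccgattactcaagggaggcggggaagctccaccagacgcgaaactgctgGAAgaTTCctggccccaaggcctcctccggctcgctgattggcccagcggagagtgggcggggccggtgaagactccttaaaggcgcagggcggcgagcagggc
Dnajb1, first of 2 listed starts, chr8:83607925-83608174, plus strand: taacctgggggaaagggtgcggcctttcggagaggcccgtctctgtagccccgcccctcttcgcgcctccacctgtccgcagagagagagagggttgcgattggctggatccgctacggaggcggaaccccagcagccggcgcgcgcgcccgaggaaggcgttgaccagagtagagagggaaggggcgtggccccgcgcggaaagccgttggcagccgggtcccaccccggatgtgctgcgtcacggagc
Hspb1, chr5:135887669-135887918, plus strand: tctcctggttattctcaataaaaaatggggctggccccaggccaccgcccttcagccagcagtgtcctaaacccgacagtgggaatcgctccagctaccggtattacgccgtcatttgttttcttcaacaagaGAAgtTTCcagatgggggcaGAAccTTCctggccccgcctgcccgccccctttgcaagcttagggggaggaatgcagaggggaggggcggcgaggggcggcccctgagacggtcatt
Hspe1, chr1:55087898-55088147, plus strand: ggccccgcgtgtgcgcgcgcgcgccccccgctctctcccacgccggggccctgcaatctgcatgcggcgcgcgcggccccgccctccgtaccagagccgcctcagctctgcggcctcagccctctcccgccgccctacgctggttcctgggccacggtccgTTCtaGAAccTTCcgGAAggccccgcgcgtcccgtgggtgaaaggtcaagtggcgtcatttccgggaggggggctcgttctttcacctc
Hspa1a and Hspa1b each held 1 match, 97 to 104 bases before the start, and Hspb1 held 2. Hspe1 held 3 overlapping matches, 72 to 89 bases before its start, which join into words of 3 units and more, of the form TTCNNGAANNTTC or GAANNTTCNNGAA. Hspd1 starts on the opposite strand of the same stretch, and a window of 250 bases before one of its 2 listed starts held the same 3 matches, while that of the other start held 0. Both windows of Hsph1 held 1 match and both windows of Dnajb1 held 0. The second Dnajb1 window (83608298 to 83608547) lay wholly inside the annotated gene (83608193 to 83612653) and not upstream of it. The Hspd1 window with the matches (55087933 to 55088182) also lay inside its annotated gene (55077835 to 55088243). Among all 32851 windows of the table, 12.8% held a 2-unit word and 0.466% a 3-unit word. Such a match is a run of letters and not a bound site.

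Hspa1a and Hspa1b are neighbours on the minus strand of chromosome 17 (34969190 to 34972156 and 34956436 to 34959238 on GRCm38, 9951 bases apart), and their 250 bases differed at 3 positions counted from the 5′ end of the printed window, C44T, T47C and T249G, with the base of Hspa1a first. Their annotated transcripts were identical at 95.1% of 2671 aligned bases. The 3′ ends, which the assay counts, were less alike, with 175 identical bases among the 240 that aligned of the last 300 of Hspa1b. The 2 genes may still share reads, and their separate values are uncertain to that extent. Hspd1 and Hspe1 overlap head to head by 112 bases on chromosome 1, away from the 3′ ends that are counted.

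In the unwounded epithelium the members fell into 3 kinds of pattern along the layers, as the plot of levels by cluster shows. Hspa8, the constitutive HSP70, stood at 601 to 897 CPM in the basal-like, limbal-like, S-phase-like and mitotic-like clusters. It stood at 271 and 136 CPM in the suprabasal-like clusters 1 and 4, and at 64.3, 39.6 and 38.2 CPM in the superficial-like clusters 2, 6 and 7. The counting intervals of clusters 6 and 7 overlapped, and so did those of clusters 8 and 9. Over the 12 clusters its highest level, 990 CPM in stromal-like cluster 0, was 25.9 times its lowest.

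Hsp90ab1, the constitutive cytosolic HSP90, followed a similar order within the epithelium. It stood at 2199 CPM in cluster 9, 2130 in cluster 11, 2065 in cluster 8 and 2045 in cluster 3, where only clusters 8 and 3 had overlapping intervals, and at 152 CPM in terminal cluster 7. The chaperonin genes did likewise. Hspd1, which encodes HSP60, went from 217 CPM in cluster 11 to 7.52 in cluster 7, and Hspe1, which encodes its lid HSP10, from 369 to 9.67. The less differentiated and the cycling cells therefore had the highest CPM of these 4 genes, and the outermost cells the lowest.

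Hsp90aa1, the HSP90 isoform that stress can induce, ran the other way at the surface. Its UW level was highest in terminal cluster 7, at 1144 CPM. Mitotic-like cluster 8 came next at 615 CPM, then superficial-like cluster 6 (567), limbal-like cluster 9 (513), S-phase-like cluster 11 (472) and the basal-like cluster (380). Superficial-like cluster 2 stood at only 300 CPM, near the suprabasal-like clusters at 276 and 289. The cycling clusters were thus high for this gene too, and the difference from the other 4 lay in clusters 6 and 7. The ratio of Hsp90ab1 to Hsp90aa1 UMIs was thus 5.38 in cluster 3 and 0.133 in cluster 7.

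The genes of the third kind were high through most epithelial layers. Hspb1 had its highest UW level in suprabasal-like cluster 4 (5023 CPM), then in clusters 2 (4759) and 1 (4352), and its lowest epithelial level in cluster 7 (1780). Hspa1b stood at 949 and 957 CPM in the suprabasal-like clusters 1 and 4, whose intervals overlapped, at 904 in the basal-like cluster, and at 282 and 76.7 CPM in clusters 6 and 7. Hspa1a was highest in conjunctival-like cluster 5 (513 CPM) and had an epithelial low of 89.8 CPM in cluster 7. Dnajb1, the HSP40 partner that stimulates HSP70, varied least of the 4 within the epithelium, from 387 CPM in cluster 9 to 652 in cluster 4. Hsph1 was highest outside the epithelium, with 52.1 CPM in stromal-like cluster 0 and 67.9 in unnamed cluster 10 against 1.33 to 23.8 CPM in the epithelial ones.

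**Figure D1:**
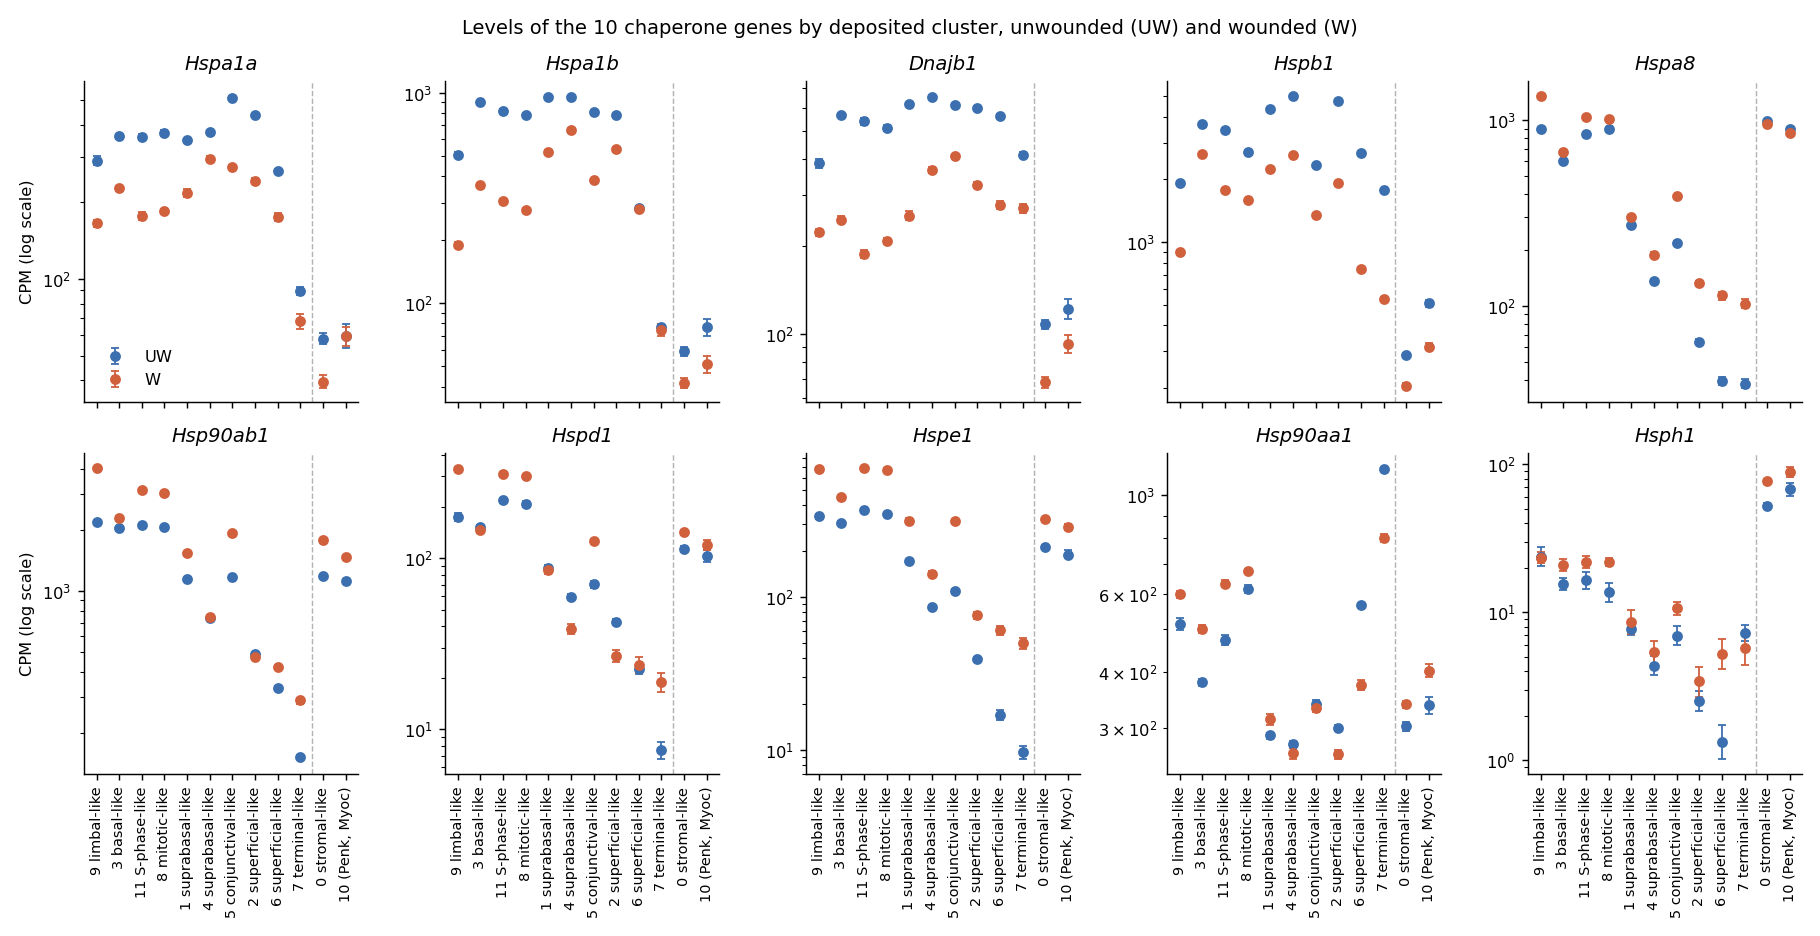
Level of each of the 10 genes (vertical axis, CPM on a log scale that differs between panels) in 12 deposited clusters (horizontal axis), with UW in blue and W in orange. Bars are exact 95% Poisson intervals of the summed UMIs, often smaller than the point, and the dashed line parts the 10 epithelial clusters from clusters 0 and 10. Hspa8, Hsp90ab1, Hspd1 and Hspe1 decline towards terminal cluster 7, where Hsp90aa1 peaks at 1144 CPM in UW.

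Members differed between W and UW in both directions. In the summed epithelial clusters 9 of the 10 members passed the level filter, of which 4 were at least 1.5-fold higher in W (22.6% of the 2910 genes tested were) and 4 at least 1.5-fold lower (23.7%). The median log2 ratio of the 9 was 0.08, beside -0.01 over all genes tested. The sum over the 10 genes was 7109 CPM in UW and 6270 CPM in W.

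The 4 lower genes were Hspb1, Dnajb1, Hspa1b and Hspa1a. Hspb1 went from 3633 CPM in UW to 1664 CPM in W (log2 ratio -1.13, interval -1.13 to -1.12). Dnajb1 went from 571 to 279 CPM (-1.03, -1.05 to -1.02), Hspa1b from 700 to 361 CPM (-0.95, -0.97 to -0.94) and Hspa1a from 344 to 211 CPM (-0.71, -0.72 to -0.69). The mean of the log2 ratios taken within each of the 10 epithelial clusters was close to these, at -1.09 for Hspb1, -0.87 for Hspa1b and -0.74 for Hspa1a. The W level was the lower one in each of the 10 epithelial clusters for Hspb1, Dnajb1 and Hspa1a. For Hspa1b it was so too, but barely in cluster 6 (282 and 281 CPM).

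The cluster by cluster view showed where each was lower. Dnajb1 was at least 1.5-fold lower in 11 of the 12 clusters, from -0.59 in cluster 5 to -1.52 in S-phase-like cluster 11, and stood at -0.40 in cluster 10. Hspb1 was lower by that fold in 10 of 12, with its extremes in superficial-like clusters 6 (-1.85, from 2683 to 742 CPM) and 7 (-1.73, from 1780 to 537 CPM) and its smallest difference, -0.48, in the basal-like cluster. Hspa1b had the opposite layout. Its log2 ratio was -1.50 in the mitotic-like cluster (782 to 277 CPM), -1.42 in both the limbal-like and the S-phase-like clusters and -1.32 in the basal-like cluster, against -0.05 in cluster 7 and a ratio of about 0 in cluster 6 (282 and 281 CPM). Whether these layouts differ beyond the spread between animals was not tested. Hspa1a was lower by the fold in 8 of 12 clusters and stood at -0.01 in cluster 10, a value that 5 of the 7 other ways of scaling or counting turned to between 0.02 and 0.11.

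Over the 120 pairs of member and cluster, 106 passed the filter, of which 37 were lower in W (34.9%, against 21.9% of all 34127 gene and cluster pairs) and 21 higher (19.8%, against 17.8%). Hspb1, Dnajb1, Hspa1a and Hspa1b made up 35 of the 37 lower pairs, and the other two were Hsp90aa1 in cluster 6 (-0.60) and Hspd1 in cluster 4 (-0.63). Cluster by cluster, the share of all genes lower by the fold was 25.6% in cluster 1, 30.5% in 2, 22.8% in 3, 31.6% in 4, 21.6% in 5, 25.5% in 6, 24.2% in 7, 21.6% in 8, 19.8% in 9 and 20.5% in 11. The share higher was 16.7% in cluster 1, 14.4% in 2, 21.7% in 3, 15.3% in 4, 16.3% in 5, 19.7% in 6, 24.8% in 7, 18.0% in 8, 23.0% in 9 and 23.4% in 11. Each of these clusters held 2 to 4 lower members and 0 to 4 higher ones among the 7 to 9 that passed.

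The 4 higher genes of the summed epithelium were Hspe1, Hspa8, Hspd1 and Hsp90ab1. Hspe1 went from 125 to 403 CPM (log2 ratio 1.69, interval 1.67 to 1.71), Hspa8 from 249 to 615 CPM (1.31, 1.29 to 1.32), Hspd1 from 75.1 to 168 CPM (1.17, 1.14 to 1.19) and Hsp90ab1 from 947 to 2072 CPM (1.13, 1.12 to 1.14). The mix of cells differed between the libraries as well. The mitotic-like cluster held 535 of the UW and 1332 of the W epithelial cells, the limbal-like cluster 521 and 956, and suprabasal-like cluster 1 held 2461 and 591. Averaged within clusters the log2 ratios were 1.17 for Hspe1, 0.67 for Hspa8, 0.46 for Hsp90ab1 and 0.28 for Hspd1, so that only Hspe1 and Hspa8 still stood above the 1.5-fold line (18.3% of the 2909 genes with a value in each cluster did, and 18.7% were past it downward). The sum weights each cluster by its UMIs and the mean weights all 10 alike, and the part of the mix in the higher sums was not tested.

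Hspe1 was above 0 in 12 of 12 clusters and at least 1.5-fold higher in 10 of the 11 in which it passed the filter. Its log2 ratio ran from 0.56 in the basal-like cluster (305 to 448 CPM) to 1.53 in the conjunctival-like cluster (109 to 315 CPM) and 1.84 in superficial-like cluster 6 (16.9 to 60.6 CPM). In cluster 7, where it was below the level filter, its ratio was the largest, at 2.36 (9.67 to 49.7 CPM), and this value enters the mean within clusters. In clusters 2 and 6 it passed the filter through W alone, and its mean over both libraries in cluster 6, 38.8 CPM, was below it. Hspd1, whose product works with that of Hspe1, moved less evenly. It was higher in the limbal-like cluster (173 to 331 CPM, 0.93) and the conjunctival-like cluster (70.1 to 125 CPM, 0.84), stood at -0.06 in the basal-like cluster (152 and 146 CPM) and was lower in suprabasal-like cluster 4 (59.1 to 38.3 CPM, -0.63). It passed the filter in cluster 4 through UW alone, and in cluster 2, where it did not pass, it stood at 42.3 and 26.8 CPM (-0.66). The ratio of Hspe1 to Hspd1 UMIs in the summed epithelium was accordingly 1.66 in UW and 2.39 in W.

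Hspa8 was higher by the fold in 5 of 12 clusters. The largest ratios were in the superficial-like clusters, where the UW levels were lowest, at 1.52 in cluster 6 (39.6 to 114 CPM), 1.43 in cluster 7 (38.2 to 103 CPM) and 1.04 in cluster 2 (64.3 to 133 CPM). In clusters 6 and 7 Hspa8 passed the filter through W alone, with means over both libraries of 76.6 and 70.5 CPM. The basal-like (0.16) and mitotic-like (0.18) clusters differed little. Marker lists of the layers moved in these clusters as well, often through 1 gene each. The 6 basal markers summed to 3868 and 11028 CPM in cluster 6 and to 952 and 4714 CPM in cluster 7, of which Krt15 made up 3818 and 10917, and 903 and 4628, and the other 5 were each higher in W too. The 5 suprabasal markers summed to 990 and 4434 CPM in cluster 6 and to 375 and 1838 CPM in cluster 7, but only Krt16 was higher in W (116 to 3996 and 90.3 to 1647 CPM) and the other 4 were lower. The 4 limbal markers, in W mostly Ifitm3, went from 37.0 to 868 CPM and from 46.7 to 1224 CPM, and the 4 conjunctival markers, mostly Krt13, from 5812 to 12944 CPM and from 4021 to 12280 CPM. The 6 superficial markers summed to 51539 and 26949 CPM and to 59823 and 30346 CPM. Among them Spink5 alone was higher in W (59.4 to 327 and 14.9 to 86.4 CPM). In each of the 10 epithelial clusters the limbal and the conjunctival sums were higher in W and the superficial sum was lower. The basal and suprabasal sums moved less evenly, with the basal sum at 1483 and 2990 CPM in cluster 1 and 23336 and 21321 CPM in cluster 5, and the suprabasal sum at 4075 and 3737 CPM in cluster 3. The part of these markers in the ratios of Hspa8 and Hspe1 in clusters 2, 6 and 7 was not tested. Hsp90ab1 was higher by the fold in 4 of 12 clusters, namely 0, 5, 7 and 9, and reached 4061 CPM in the W limbal-like cluster against 2199 CPM in UW (0.89). It stood at 0.01 in cluster 4 and -0.05 in cluster 2.

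The 2 remaining members showed no call in the summed epithelium. Hsp90aa1 had 457 CPM in UW and 482 in W (0.08), a sign that scaling by trimmed means (TMM) turned to -0.14. Within clusters it was lower at the surface, by -0.60 in cluster 6 (567 to 375 CPM) and -0.52 in cluster 7 (1144 to 801 CPM), and stood at 0.42 and 0.40 in clusters 11 and 3. Hsph1 had 7.09 and 14.3 CPM and was below the level filter. TMM moved all log2 ratios of the summed epithelium by 0.22 downward and left all 8 calls past the fold.

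**Figure D2:**
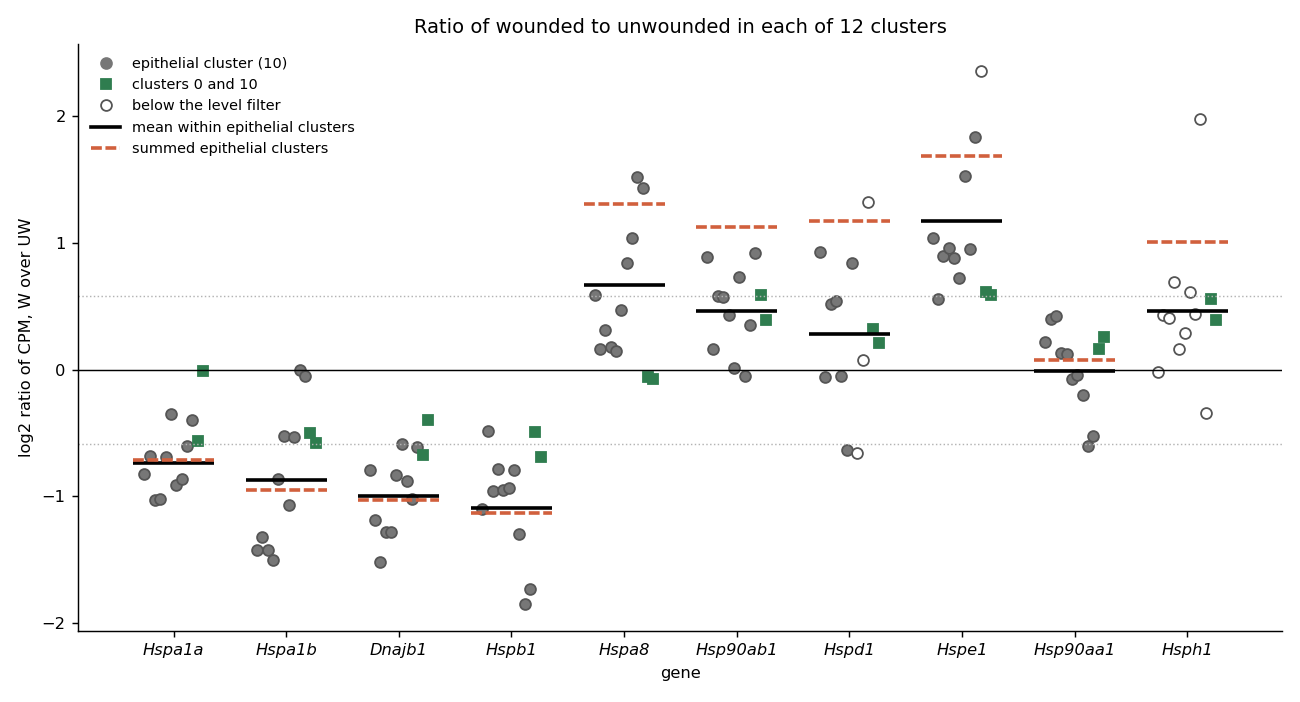
Log2 ratio of CPM in W over UW (vertical axis) for each gene (horizontal axis). Each point is 1 cluster, circles for the 10 epithelial clusters and green squares for clusters 0 and 10, open where the gene was below the level filter, and dotted lines mark a fold of 1.5. The black bar is the mean within epithelial clusters and the dashed orange bar the summed epithelium. The bars lie apart for Hspa8, Hsp90ab1, Hspd1, Hspe1 and Hsph1 and together for Hspa1a, Hspa1b, Dnajb1 and Hspb1.

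Handling of tissue can also induce heat shock genes, and most of the immediate early genes that accompany it were lower in W. Of 14 such genes 13 passed the filter in the summed epithelium, of which 8 (61.5%, against 23.7% of all genes) were at least 1.5-fold lower, 0 higher, with a median log2 ratio of -0.84. Fos went from 1711 to 839 CPM and Egr1 from 635 to 189 CPM, while Jun (2587 and 3023 CPM), Dusp1 (1480 and 1619 CPM) and Atf3 (1154 and 1218 CPM) were not lower. Averaged within clusters, 6 of the 13 (46.2%, against 18.7% of all genes) were past the fold downward and 0 upward. In cluster 0, 12 of 14 (85.7%, against 15.1%) were lower and the median was -1.30. The methods of the study describe a stepwise removal of cells with a dissociation signature unless other marker genes explained them. Whether this preceded the deposit, and the genes of the signature, are not given in the sources used here. For each library the deposit held fewer cells than the study reports after its quality control. The numbers of the deposited clusters also went from 11 straight to 13. Which cells were left out, and at which step, could not be told from these sources. The part of dissociation, and of the removal of cells with its signature, in the levels of Hspa1a, Hspa1b, Dnajb1 and Hspb1 was not tested. Of 5 neutrophil markers, S100a8 (0.838 to 156 CPM) and S100a9 (22.1 to 541 CPM) were higher in the W epithelium, whereas Csf3r, Cxcr2 and Retnlg stayed under 1 CPM in both libraries.

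In stromal-like cluster 0 all 10 members passed the filter, Hspa1a and Hspa1b through UW alone. Hspe1 (210 to 321 CPM, log2 ratio 0.61) and Hsp90ab1 (1190 to 1788 CPM, 0.59) were higher in W (12.8% of the 3259 genes tested were), and Dnajb1 (108 to 68.1 CPM, -0.67) was lower (15.1% were). These calls lay near the fold. The lower one was lost under TMM and median-of-ratios scaling, totals without mitochondrial and ribosomal protein genes and thinning, and the higher ones numbered 3 under those first 3 settings, 1 without doublets and 0 with means over cells. The median log2 ratio of the 10 was 0.05, beside -0.08 over all genes. Hsph1 went from 52.1 to 76.7 CPM (0.56), just under the fold. Hspa8 stood at 990 and 949 CPM (-0.06), a sign that TMM scaling turned. In cluster 10 the calls were Hspe1, higher at 0.59 (10.1% of 3216 genes were), and Hspb1, lower at -0.69 (9.05% were).

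Transcripts of epithelial marker genes were counted in these clusters too. Krt12, a keratin of the corneal epithelium, stood in cluster 0 at 5.81% of its epithelial level in UW and 5.96% in W. The other epithelial markers lay between 5.11% and 11.2%, except Aldh3a1 at 77.5% and 82.8%. Hspb1 stood at 7.97% and 12.4% of its epithelial level and Hspa1b at 8.41% and 11.5%, within the range of those markers in UW and above their W values, whereas Hspa1a (16.9% and 18.8%) and Dnajb1 (18.9% and 24.4%) stood higher. Hspa8 at 398% and 154%, and Hsph1 at 735% and 538%, stood far above.

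Subtracting from cluster 0 the epithelial profile of the same library, scaled to take up all Krt12, a step added after seeing the data that assumes no Krt12 of the cluster's own, removed 72.8% of the UW and 48.1% of the W level of Hspb1. The log2 ratio of Hspb1 then stood at 0.44 in place of -0.49 and that of Hspa1b at 0.15 in place of -0.50. Dnajb1 (-0.54) and Hspa1a (-0.50) stayed below 0, and Hspe1, Hsp90ab1 and Hsph1 each stood at 0.55. No member was past the fold after this subtraction. In cluster 10 Hspb1 stood at -0.42 after it and Hspa1a at 0.28. Hspe1 stood there at 181 CPM in UW and 257 CPM in W after it, so both calls of cluster 10 fell under the fold.

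**Figure D3:**
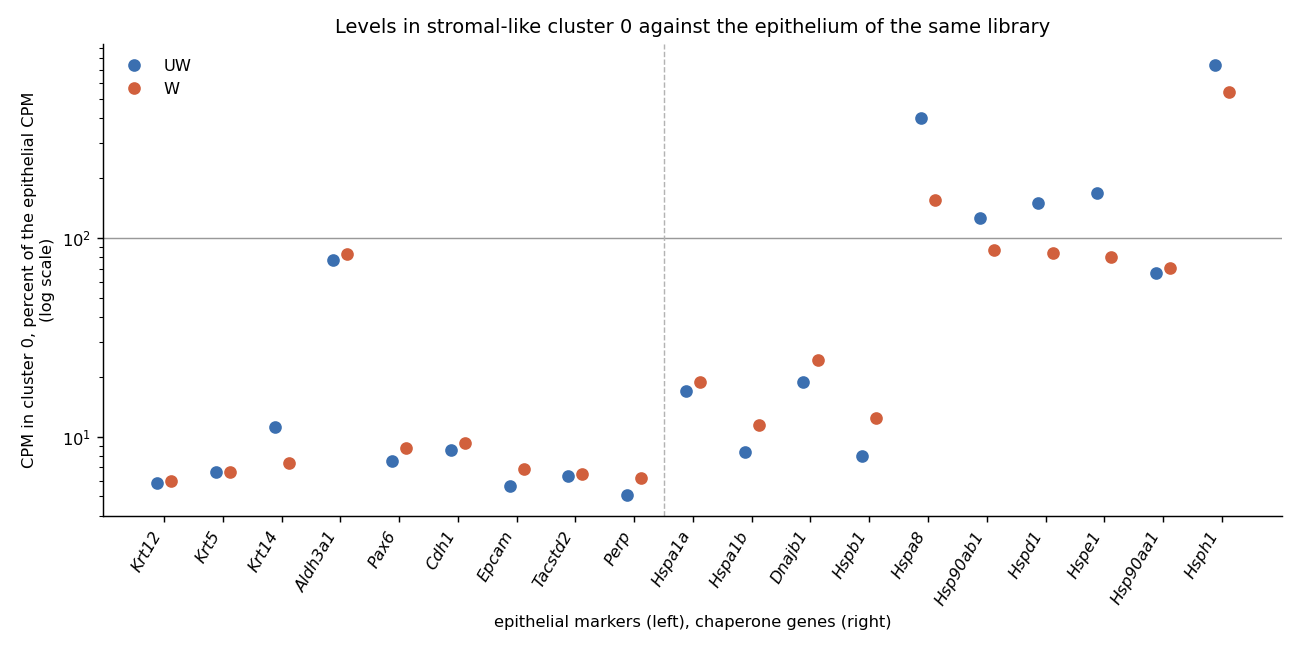
Level in stromal-like cluster 0 as a percentage of the summed epithelial level of the same library (vertical axis, log scale), for 9 epithelial markers and the 10 members (horizontal axis), UW in blue and W in orange. Hspb1 and Hspa1b lie near the epithelial markers at 7.97% to 12.4%, Hspa8 and Hsph1 above 100%.

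The immune clusters were almost absent from UW, so only W levels are given. Cluster 13 had high neutrophil markers, but none was among its leading genes, so it is left unnamed. Its cells were shallow (median 2510 UMIs). In cluster 13, the mononuclear phagocyte-like clusters 14 and 15, and T-like cluster 16, Hsp90aa1 stood at 562, 623, 942 and 601 CPM. Hspa8 stood at 530, 1104, 1013 and 1245 CPM in the same order. Cluster 15 held the highest W level of Hsp90aa1 among 16 clusters. Krt12 was at 29.0% of its epithelial level in cluster 13, 49.0% in 14 and 10.1% in 15, and Hspb1 at 35.8%, 35.6% and 10.4%. The share of Hspb1 was thus above that of Krt12 in cluster 13, below it in cluster 14 and close to it in cluster 15. The 9 epithelial markers ranged from 27.4% to 43.9% in cluster 13, from 25.7% to 49.0% in cluster 14, with Krt12 the highest, and from 8.13% to 15.1% in cluster 15. In cluster 14 Hspa1b (45.2%) stood within that range and Hspa1a (49.9%) and Dnajb1 (51.0%) just above it, and in cluster 15 Hspa1b stood at 15.3%, Dnajb1 at 30.4% and Hspa1a at 58.0%.

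Shares of epithelial cells with a UMI followed the levels once each of these cells had been thinned to 5000 UMIs, which left out 367 UW and 176 W epithelial cells as too shallow. In the epithelium the share with Hspe1 was 40.5% in UW and 66.0% in W (71.6% and 88.5% unthinned), that with Hspa8 54.7% and 73.7%, that with Dnajb1 82.9% and 66.8%, and that with Hspa1a 65.3% and 55.8%. Hspb1 was found in 99.4% and 95.6% of thinned epithelial cells, at means of 17.5 and 8.51 UMIs per cell. As the background level Krt12 was used, on the assumption that stromal cells do not make it. It gave a UMI in 100% of unthinned W cells of cluster 0 (median 17588 UMIs, against 25553 in the W epithelium). A share with Hspb1 there (93.3%) or Hspa1b (49.6%) is therefore not read as expression.

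The members shared their patterns with different genes. Over the 28 groups of cluster and library with at least 50 cells, the Pearson correlation of log2(CPM + 1) was ranked among 6223 genes, as a description of groups that share libraries and ambient RNA. Hspa1b was most like Dsp (0.986), a desmosome gene, then Cldn4 and Notch3, and Hspa1a was most like Hspa1b (0.959). Hspb1 and Dnajb1 were both most like Sh3gl2 (0.965 and 0.939). Hsp90ab1 was most like Eef1g (0.985), a translation elongation factor, then Cct4 (0.984), a subunit of the cytosolic chaperonin, and Hspd1 (0.978). Hspd1 was most like Ncl (0.984), the nucleolar protein nucleolin, Hspe1 like Rcc2 (0.989) and Hspa8 like Taf1d (0.978). Hsph1 was most like Tmed1 (0.963). Hsp90aa1 had no such close match, with Rnaset2b first and Id2 next at 0.745. Among the members themselves Hspa8 stood at 0.926 with Hspe1 and at -0.582 with Dnajb1. These values describe differences between groups. Over cells within groups the correlations were small, with medians over 24 groups of 0.068 and -0.009 for these pairs.

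A wider list of 77 chaperone genes in the table, none of them a member, gave the surroundings. In the summed epithelium 48 passed the filter, of which 13 (27.1%, against 22.6% of all genes) were at least 1.5-fold higher in W and 2 (4.17%, against 23.7%) lower, with a median log2 ratio of 0.32 beside -0.01 over all genes. Of the 13, Ahsa1 (31.6 to 53.5 CPM) passed the filter through W alone. Averaged within clusters, 5 of the 13 stayed above the fold, namely Cct3, Cct5, Pfdn6, Calr and Pdia6, and 4 genes of the list were past it downward. These were 10.4% and 8.33% of the 48, below the 18.3% and 18.7% of all genes. The TRiC complex, the cytosolic chaperonin that folds actin and tubulin, had 5 of the 7 listed genes found in the table higher (median 0.80), with Cct5 at 94.6 and 193 CPM (1.03) and Cct3 at 77.4 and 155 CPM. Prefoldin, which hands clients to TRiC, had 2 of 5 higher, led by Pfdn6 (56.3 to 126 CPM, 1.16). The co-chaperone Fkbp4, an HSP90 partner, went from 52.5 to 107 CPM (1.03). As for the 4 higher members, these ratios were smaller within clusters. Of TRiC only Cct5 (0.64) and Cct3 (0.61) stayed past the fold, and the others stood at 0.43 for Cct8, 0.34 for Cct7, 0.24 for Cct4, 0.14 for Cct2 and -0.12 for Tcp1. Fkbp4 stood at 0.51 and Pfdn6 at 0.99.

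The lower end held Cryab, a small heat shock protein like Hspb1, at 406 CPM in UW and 75.8 CPM in W (-2.42, and -1.93 within clusters), and Bag2, a regulator of HSP70, at 73.9 and 33.0 CPM (-1.16, -0.64 within clusters), which passed the filter through UW alone, as did Dnajc5. Clpx (-0.58) and Dnajc5 (-0.49) came next, without passing the fold, though Dnajc5 (-0.60) and Hspa4 (-0.69) were past it within clusters. None of the 6 HSP40 genes of the list that passed the filter was called in the summed epithelium in either direction.

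In cluster 0, 53 of the wider list passed, with 7 higher (13.2%, near the 12.8% of all genes), 0 lower (15.1% of all genes) and a median of 0.19 beside -0.08 over all genes. Hspa4l, an HSP110 gene, was the largest at 20.6 and 94.3 CPM (2.19), followed by the endoplasmic reticulum genes Sdf2l1 (39.0 to 100 CPM, 1.36), Dnajb11 (83.7 to 152 CPM, 0.86) and Calr (616 to 1042 CPM, 0.76). Hspa4l and Sdf2l1 passed the filter through W alone. Ubb (-0.46), Pdia3 (-0.40), Bag5 (-0.37) and Hspa13 (-0.35) had the smallest ratios.

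**Figure D4:**
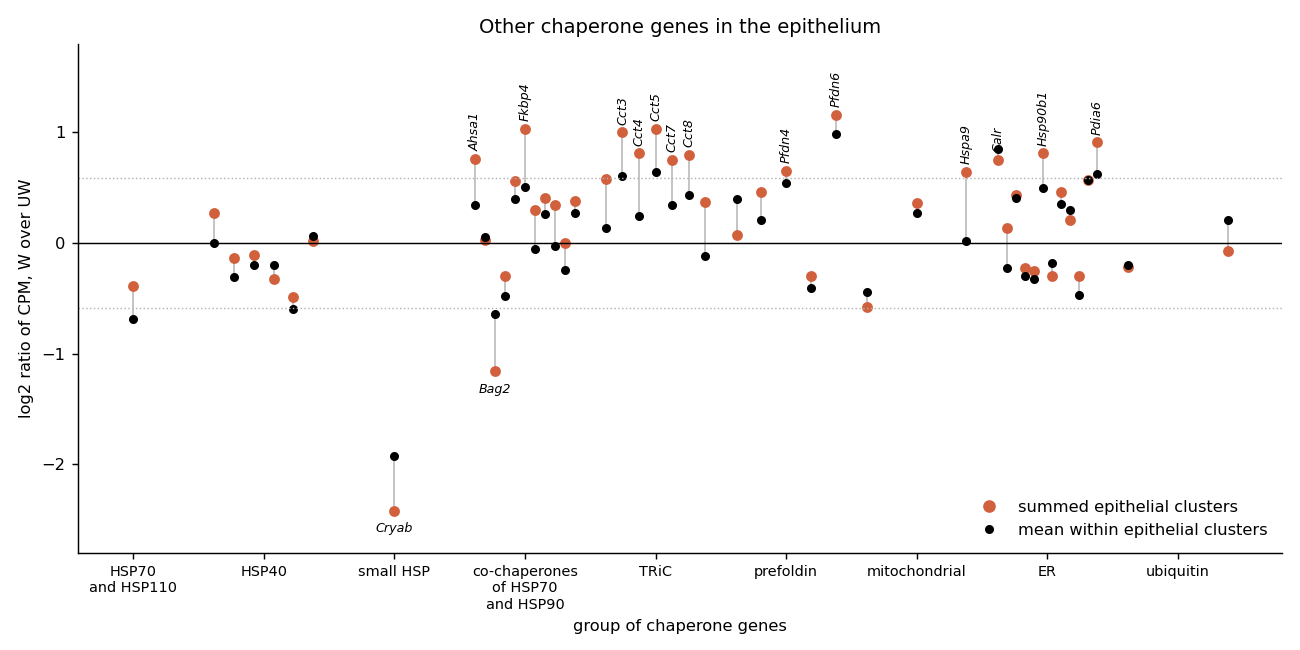
Log2 ratio of CPM in W over UW in the epithelium (vertical axis) for the genes of the wider chaperone list that passed the level filter, by group (horizontal axis). Orange points are the summed epithelial clusters and black points the mean within the 10 clusters, joined by a line per gene, with genes past a fold of 1.5 in the sum named and dotted lines at that fold. The median of the TRiC genes is 0.80 in the sum, with only Cct3 and Cct5 past the fold within clusters, and Cryab lies lowest at -2.42.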

How the data were processed

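Corneal cells of 4 pooled unwounded mice (UW) and 4 pooled wounded mice (W) were sequenced as 1 library each. The deposited values are raw counts of UMIs, made by the authors with Cell Ranger 3.1.0 and not normalized. Their methods name the mm10 reference and the submitters' processing notes name mm9. The methods and the labels also give different versions of the 10x kit. The authors state that each kept cell had between 500 and 8000 genes and no more than 10% of mitochondrial UMIs, which held for all cells used here. They also state removal of doublets, removal during their analysis of cells with a dissociation signature not explained by other marker genes, and clustering in Seurat. The deposited table of cells gave the library, cluster and doublet calls of a first run.

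Counts as deposited were summed per cluster and library and divided by total UMIs (CPM) in Python 3.11.15 with scipy 1.17.1. Intervals are exact 95% Poisson intervals for levels, Clopper-Pearson intervals for shares, and conditional binomial intervals for ratios. They cover counting error only. Folds from 1 library per condition have no replicate check, so no p-value was computed. The recovery of known folds was tested on simulated sums. The members and gene lists were chosen with earlier results of these data known. The text names all 10 members, the 4 largest and 4 smallest ratios of the wider list in the epithelium and in cluster 0, the genes most like each member, and the leading genes of clusters. Markers, immediate early genes and genes beside a count were chosen after their values were seen. Likeness used a pseudocount of 1. Gene positions came from GENCODE M21 and promoters from RefSeq. Alternatives used edgeR 4.0.16 (TMM factors) and DESeq2 1.42.0 (size factors) for scaling only.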

Additional observations from a re-analysis of the deposited data

Results flagged for a closer look

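Hspd1 was at least 1.5-fold higher in W in some clusters and lower by that fold in another. Its log2 ratio was 0.93 in limbal-like cluster 9 and 0.84 in conjunctival-like cluster 5, and -0.63 in suprabasal-like cluster 4. In cluster 4 the level filter was passed through UW alone (59.1 against 38.3 CPM), and the mean of both libraries there, 48.7 CPM, was below it. The difference between these clusters was not tested, since each condition is 1 library.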

How the results depend on the processing

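No paired analysis was possible because each condition is 1 library, and for the same reason no replicate could be left out. The 4 higher and 4 lower members of the summed epithelium kept their numbers under TMM and median-of-ratios scaling, other totals, a stricter filter on cells, removal of first-run doublets, means over cells and thinning. No called member changed sign in the epithelium or in cluster 0 under these settings, whereas 5 higher members were counted without the level filter, 2 lower ones at a fold of 2, and 2 higher ones with ratios averaged within clusters.

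The median log2 ratio of the epithelium moved to -0.14 (TMM), -0.15 (median of ratios), 0.17 (without mitochondrial and ribosomal protein genes), 0.07 (without doublets), -0.02 (means over cells), 0.01 (thinned), 0.54 (no level filter) and -0.01 (within clusters). That of cluster 0 moved to 0.20, 0.22 and 0.15 under the first 3 and to 0.22 after the added subtraction. In cluster 0 the 1 lower call was lost (0) under those 3, thinning, the fold of 2 and the subtraction. The higher calls there were 1 without doublets and 0 with means over cells, the fold of 2 or the subtraction. With the level filter on the mean of both libraries, also added after seeing the data, the median of cluster 0 stood at 0.16 and the pairs numbered 20 higher and 36 lower. The smaller fold tried gave 4 higher and 4 lower there. Pairs of member and cluster numbered 35 higher at that fold, and 6 higher and 16 lower at a fold of 2. The cause was not tested where the fold itself was not changed. The level filter of 50 CPM, and not the minimum of 20 UMIs, left some ratios past the fold without a call. These were Hspd1 in clusters 2 and 7, Hspe1 in cluster 7, and Hsph1 in the summed epithelium and in 3 clusters. For Hsph1 they were clusters 5 (0.61, 6.94 to 10.6 CPM), 6 (1.98, 1.33 to 5.24 CPM) and 8 (0.69, 13.6 to 21.9 CPM).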
